A study of Mus musculus with 9 samples.

Results

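The nuclear-encoded respiratory chain genes of mouse bone marrow-derived macrophages were described across resting cells and cells given LPS with or without BHB. Members were the gene symbols that begin with Nduf, Uqcr, Cox4 to Cox8 or Atp5, leaving out 9 symbols marked as pseudogenes by -ps. The rule found 88 of the 46095 symbols listed, and no measured value was used in it. The prefix placed 7 of them in the catalytic core of complex I, 31 among its accessory subunits, 7 among the Ndufaf assembly factors of complex I, 8 in complex III, 18 in complex IV and 17 in complex V. After removal of genes with too few counts, 82 members were tested.

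Messenger RNA had been sequenced from macrophages grown from marrow precursors, all from Balb/c mice of wild-type genotype aged 6 weeks. The 3 groups of 3 libraries were control, LPS, and LPS plus BHB, and no group received BHB alone. The labels do not spell out either agent. LPS usually means lipopolysaccharide, a component of bacterial walls that macrophages sense, and BHB usually means beta-hydroxybutyrate, a ketone body. Dose and time are not in the labels, and neither is the origin of the replicates (cultures or animals), so the p-values speak for the scatter among these 9 libraries, which may be technical.

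The respiratory chain carries electrons from NADH through complex I, and from succinate through complex II, to coenzyme Q, then through complex III and cytochrome c to complex IV, which reduces oxygen. Complexes I, III and IV pump protons across the inner mitochondrial membrane, and complex V, the ATP synthase, uses the return flow to make ATP. Each of these except complex II joins subunits made from nuclear genes with subunits made inside the mitochondrion. In macrophages the chain is known both for making ATP and as a source of reactive oxygen species, and its use changes when the cells are activated by bacterial products.

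Promoter sequence is shown for 6 members whose RNA moved in different directions. In capitals are the letters of motifs of 2 factors known to act on mitochondrial genes, read on both strands: NRF1 (GCGC, any base, TGCGC) and GABP (CCGGAAG). Sequences are the bases before the RefSeq start on GRCm38.p6, 5′ to 3′ on the gene's strand, without any base that the GENCODE annotation places inside the gene. Uqcr11 (chr10:80406831-80406996, minus strand), Atp5e (chr2:174464106-174464276, minus strand) and Ndufb8 (chr19:44555443-44555617, minus strand) were lower with LPS. Cox6a1 (chr5:115348982-115349133, minus strand) was higher with LPS, a call that depended on the scaling described below. Ndufaf4 (chr4:24897908-24898082, plus strand) was higher with LPS and lower when BHB was added, and Ndufv3 (chr17:31519940-31520114, plus strand) showed the opposite.
Uqcr11: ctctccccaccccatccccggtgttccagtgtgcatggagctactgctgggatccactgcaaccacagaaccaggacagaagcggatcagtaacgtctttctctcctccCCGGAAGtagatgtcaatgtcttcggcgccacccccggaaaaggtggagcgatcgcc
Atp5e: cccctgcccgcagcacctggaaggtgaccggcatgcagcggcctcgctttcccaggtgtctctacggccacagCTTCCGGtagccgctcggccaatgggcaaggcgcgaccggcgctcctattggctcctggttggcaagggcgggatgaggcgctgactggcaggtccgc
Ndufb8: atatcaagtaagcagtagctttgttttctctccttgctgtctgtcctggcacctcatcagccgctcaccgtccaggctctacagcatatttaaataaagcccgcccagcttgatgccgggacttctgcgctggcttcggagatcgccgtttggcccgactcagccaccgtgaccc
Cox6a1: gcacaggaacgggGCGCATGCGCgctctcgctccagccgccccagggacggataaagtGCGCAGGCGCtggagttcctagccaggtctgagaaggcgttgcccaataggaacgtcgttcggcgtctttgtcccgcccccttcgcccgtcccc
Ndufaf4: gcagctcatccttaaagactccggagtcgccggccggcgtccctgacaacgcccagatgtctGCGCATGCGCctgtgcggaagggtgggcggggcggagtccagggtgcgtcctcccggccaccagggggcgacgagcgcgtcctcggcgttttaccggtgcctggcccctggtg
Ndufv3: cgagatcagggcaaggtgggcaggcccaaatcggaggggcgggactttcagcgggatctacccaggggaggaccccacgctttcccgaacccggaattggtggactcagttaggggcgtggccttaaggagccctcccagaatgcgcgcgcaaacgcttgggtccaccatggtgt

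The RefSeq table held 79 promoters of 73 members, each of 250 bases before and 50 after the start. The NRF1 letters were in 22.8% of them, against 4.60% of all 32851 promoters. For GABP the shares were 19.0% and 8.86%, and for the YY1 motif AAGATGGC they were 15.2% and 2.75%. At least 1 of these 3 motifs was in 50.6% of the members' promoters and in 14.7% of all. The ESRRA motif TCAAGGTCA was in 1.27% against 0.423%, and the hypoxia response motif ACGTGC in 5.06% against 5.91%. The motifs were searched separately, and matches of different motifs may overlap. Among members with a promoter, 3 of the 11 that were higher with LPS, 17 of the 32 that were lower and 18 of the 27 not called held NRF1, GABP or YY1 letters. For BHB added to LPS the same counts were 4 of 9, 14 of 26 and 20 of 35. The letters were thus present in genes of every direction, and a match describes the sequence only.

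Libraries held 29633411 to 32798920 counts. Levels are given as CPM, counts brought to 1 common library total after TMM scaling, a factor that corrects for a few abundant genes taking a changing share of the reads. It was above 1 in the control and below 1 in the treated libraries, so it matters for these genes: with library totals alone, the median of all genes moved by -0.27 on the log2 scale for LPS against control, by -0.05 for LPS plus BHB against LPS and by -0.33 for LPS plus BHB against control. Control replicates 2 and 3 held low counts of genes that LPS induces. Il12b, an interleukin subunit gene, had 0, 223 and 213 counts in control replicates 1 to 3, the latter being 0.513% and 0.505% of the LPS mean in CPM. All 10 macrophage markers were tested and summed to 19108 to 22505 CPM in control, 9306 to 10669 in LPS and 15121 to 15646 in LPS plus BHB libraries. Lyz2 made up most of that sum in control, and the markers went both ways: Adgre1 was at 811 to 897 CPM in control and 1222 to 1378 with LPS, and Csf1r at 2402 to 2580 and 593 to 653. All 6 dendritic cell markers, of which 2 passed the filter, summed to 2.08 to 2.79, 17.9 to 22.03 and 12.7 to 14.6 CPM. Zbtb46 made up most of the treated sums, at 17.5 to 21.9 CPM with LPS, while Cd209a was at 1.15 to 1.295 CPM in control and at most 0.0707 with LPS. All 8 neutrophil markers, of which 4 passed, summed to 5.51 to 6.28, 2.06 to 3.66 and 5.18 to 7.87 CPM. The 5 stromal markers summed to 3.02 to 10.1, 3.36 to 8.11 and 3.6 to 9.52 CPM. Lymphocyte, erythroid and mast cell markers summed to at most 0.210 CPM in each list, with Klrb1c, Ms4a2 and Fcer1a at 0 counts. The part of these shifts in the results below was not tested. In bulk RNA, fewer expressing cells and less RNA per cell cannot be told apart.

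Levels were compared between genes as CPM per kilobase of annotated exon, which could be computed for every tested member but Atp5o. In control libraries Cox4i1, a subunit of complex IV, ranked highest, between 269 and 301 CPM per kb. Atp5b, the catalytic beta subunit of complex V, followed at 211 to 221, without overlap with Cox4i1. Cox8a, another subunit of complex IV, came next at 145 to 180 and overlapped the alpha subunit Atp5a1 at 150 to 154 and Cox6a1 at 142 to 153. With LPS the order of the first pair turned, at a mean of 317 for Atp5b and 265 for Cox4i1. Group medians in control were 28.6 CPM per kb for the complex I core, 24.0 for its accessory subunits, 47.4 for complex III, 52.6 for complex IV and 45.2 for complex V. The Ndufaf factors, which build complex I but are not part of it, lay far below at a median of 3.58 and a highest value of 5.91.

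**Figure D1:**
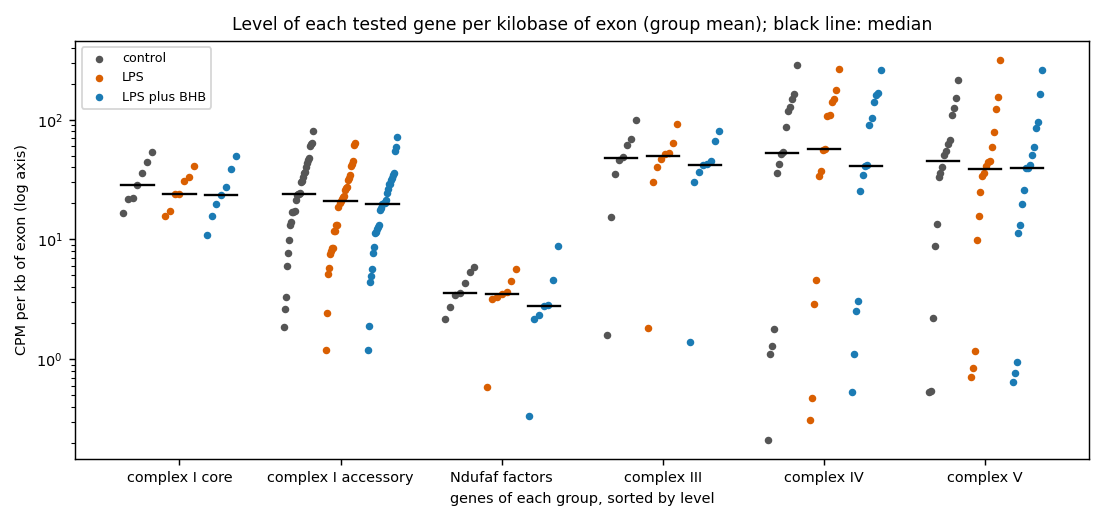
Mean CPM per kilobase of exon (log axis) of each tested member with an annotated length, by group of members (horizontal axis, sorted by level within a group) for control (grey), LPS (orange) and LPS plus BHB (blue), with the median as a black line. The Ndufaf factors sit below 10 CPM per kb, while most subunit genes lie between 10 and 300.

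A few members stood far below their partners. Cox7b2, Cox8b and Cox8c, isoforms known from muscle or testis, had 0 counts in all 9 libraries, which allows at most 3 counts in 281449111, or 0.0107 CPM by counting error alone. Cox4i2 and Ndufa4l2, alternative forms of Cox4i1 and Ndufa4, had 4 counts each over the 9 libraries and were not tested. Ndufa7, a standard subunit of complex I, had only 1 count. It lies at chr17:33824572-33838317 on GRCm38, where the neighbours Rps28, Cd320 and Kifc1 also had 2, 5 and 7 counts, while Rab11b and Tapbp farther out had 9963 and 2745. Its count therefore cannot be read as a level of expression.

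In LPS against control libraries, 21 of 36 tested complex I subunits were lower and 1 was higher, complex III was split between a large rise of Uqcrq and falls of Uqcr11 and Uqcr10, and complexes IV and V changed in both directions. In all, 14 of the 82 tested members were higher, 36 were lower and 32 were not called at an adjusted p below 0.05 (edgeR, quasi-likelihood test, Benjamini-Hochberg adjustment over 14026 genes; all adjusted p-values are of this kind). Across all genes 79.8% were called, 38.4% higher and 41.4% lower, so the members' share of lower calls, 43.9%, was near the background, and their share of higher calls, 17.1%, lay under it. Few changes were large: 19 called members passed 1.5-fold and 9 passed 2-fold, against 8601 and 6311 of all genes. The median log2 fold change was -0.12 for members and -0.06 for all genes. Control and LPS libraries did not overlap for 56 members, against 82.7% of all genes. With library totals alone 8 were higher and 60 lower, against 4283 and 7084 of all genes. On that scale the counts of higher and lower members were 0 and 7 in the complex I core, 1 and 25 in its accessory subunits, 1 and 4 in the Ndufaf factors, 3 and 4 in complex III, 1 and 9 in complex IV and 2 and 11 in complex V. With control replicate 1 as the only control, the log2 fold change was 1.39 for Uqcrq, -0.86 for Uqcr11 and -0.23 for Uqcr10.

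**Figure D2:**
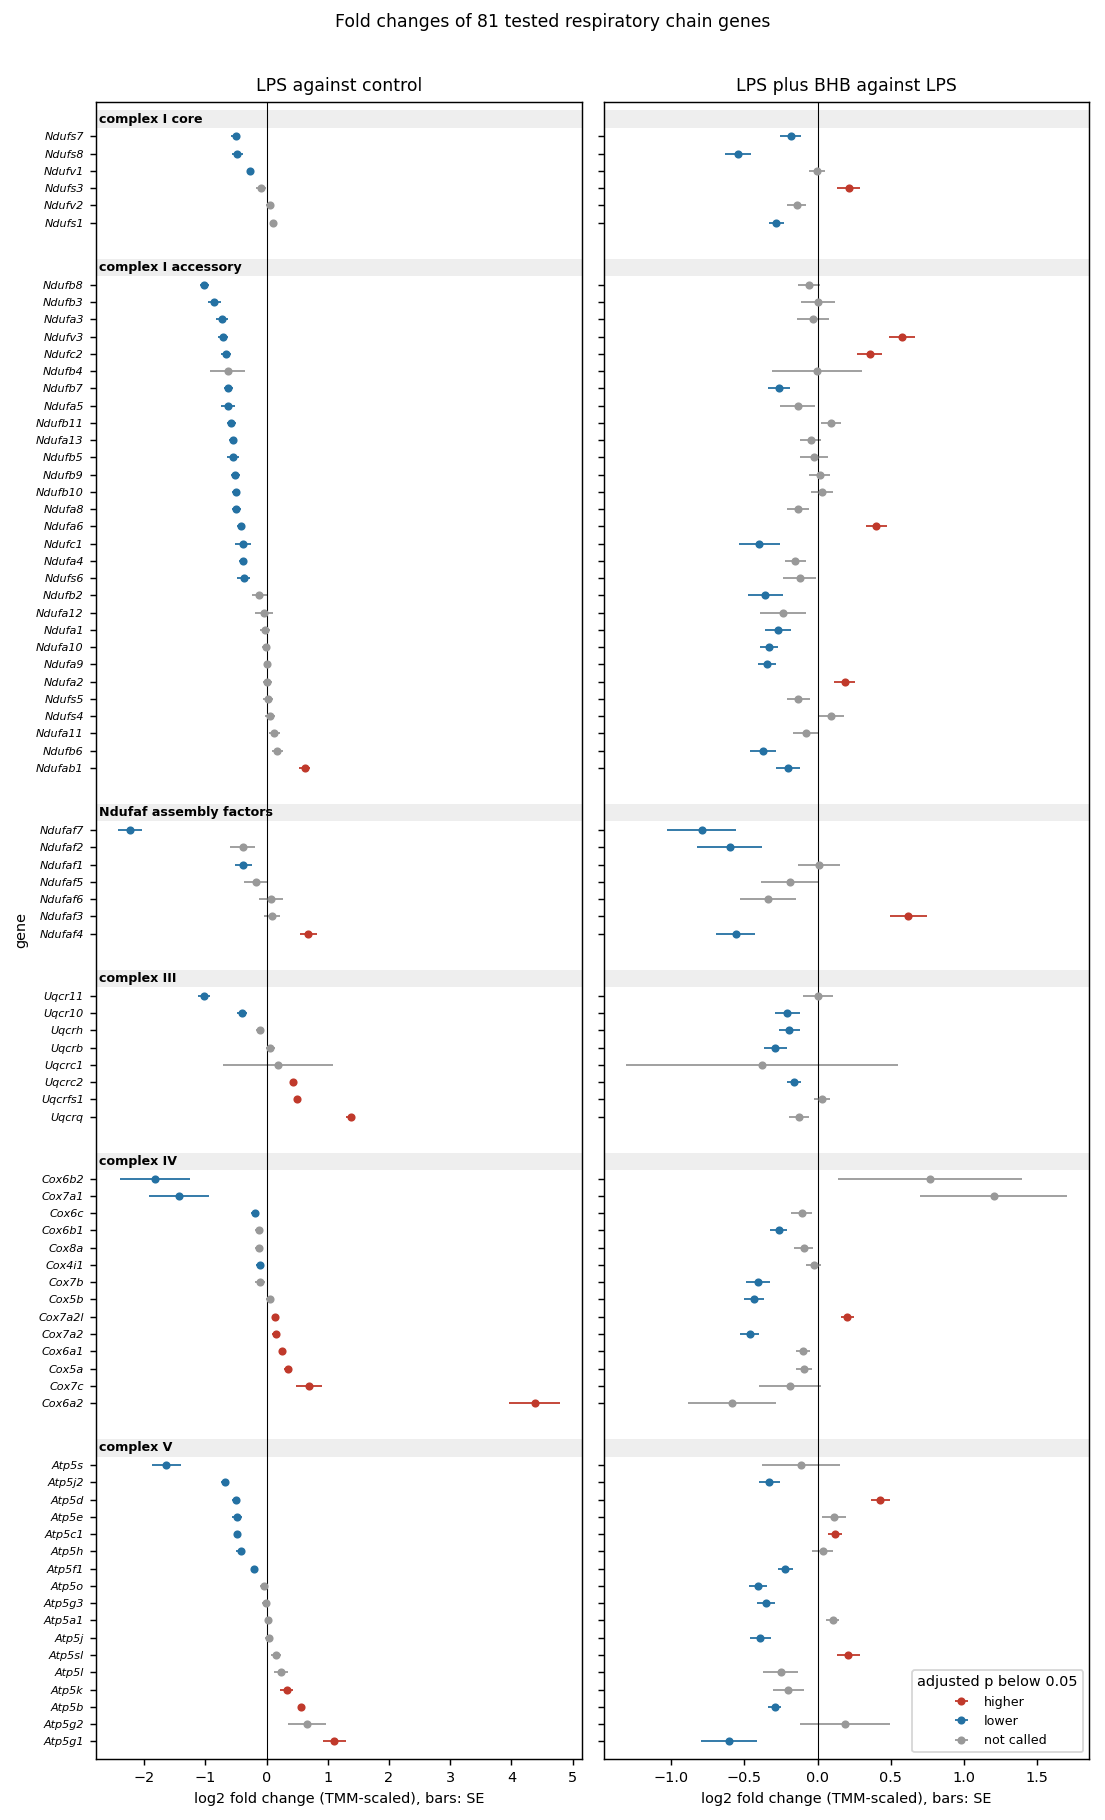
Log2 fold change (horizontal axes, TMM scaling, bars are SE) of 81 tested members by group, for LPS against control (left) and LPS plus BHB against LPS (right), in red where higher, blue where lower and grey where not called. With LPS 17 of 29 accessory subunits of complex I are lower and Ndufab1 is higher; library totals alone move every point of the left panel by about -0.27, which among called members turns the sign of Cox6a1, Cox7a2 and Cox7a2l, and also turns that of uncalled members near 0 such as Ndufs1.

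In the complex I core, 4 of 7 subunits were lower with LPS and 3 were not called. In the edgeR fit of all 9 libraries with TMM scaling 0 were higher, also at an unadjusted p below 0.05, while DESeq2 and some other edgeR settings called 1 higher, Ndufs1. Ndufs7 (chr10:80249121-80256794), an iron-sulfur protein close to the coenzyme Q site, gave 45.1, 43.6 and 41.1 CPM in control, 28.8, 31.02 and 31.5 in LPS and 28.6, 24.8 and 26.96 in LPS plus BHB libraries. The 3 groups did not overlap and stepped down in that order. The log2 fold change with LPS was -0.51 ± 0.07 (SE; adjusted p = 9.51e-07). Ndufs8 (chr19:3908863-3912774), its neighbour in the electron path, gave 28.3, 28.8 and 27.5 CPM in control, 21.2, 18.4 and 21.3 in LPS and 14.4, 12.2 and 15.1 in LPS plus BHB libraries. Here too every group was apart from the next, and the change with LPS was -0.48 ± 0.08 (adjusted p = 3.23e-05). The NADH-binding subunit Ndufv1 fell by 0.27 on the log2 scale (adjusted p = 0.00018).

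Ndufs1, the largest iron-sulfur subunit of the NADH-oxidising arm, gave 66.0, 65.8 and 66.5 CPM in control, 71.2, 69.9 and 72.3 in LPS and 61.6, 58.6 and 55.2 in LPS plus BHB libraries. The LPS libraries lay above the control ones without overlap, but the log2 fold change of 0.11 ± 0.05 was not called (adjusted p = 0.0666). With DESeq2 it was 0.14 (adjusted p = 0.0174), and it was also called higher with DESeq2's size factors in edgeR, in a fit of the 6 libraries compared (adjusted p = 0.0232), without the filter (adjusted p = 0.0464) and on leaving out each LPS plus BHB library in turn (adjusted p = 0.0269 to 0.0495). However, with library totals alone it was -0.17 (adjusted p = 0.00489), so its direction depended on the scaling. Ndufs3 and Ndufv2 were not called, at -0.09 and 0.05.

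Of 29 tested accessory subunits of complex I, 17 were lower, 1 was higher and 11 were not called, with a median log2 fold change of -0.41. Ndufb8 (chr19:44548572-44555440), in the membrane arm, gave 60.1, 58.8 and 60.6 CPM in control, 32.6, 27.4 and 28.6 in LPS and 30.2, 25.98 and 28.9 in LPS plus BHB libraries. All treated libraries lay below all controls, and the treated groups overlapped. It fell by 1.02 ± 0.07 on the log2 scale (SE; adjusted p = 3.08e-11). Ndufb3, also in the membrane arm, went from 19.3, 17.6 and 17.5 CPM in control to 9.17, 8.92 and 12.1 in LPS libraries, with no overlap, a fall of 0.85 ± 0.11 (adjusted p = 5.47e-07). The other 15 lower members, of both arms, ranged from Ndufa3 at -0.73 to Ndufs6 at -0.37. Ndufa4, named as a complex I subunit but since found to be bound to complex IV, was at 49.1, 51.5 and 48.7 CPM in control and 35.5, 41.4 and 37.3 in LPS libraries, a fall of 0.39 ± 0.07 (adjusted p = 2.64e-05).

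The accessory subunit that was higher, Ndufab1 (chr7:122085403-122101886), is also the acyl carrier protein of mitochondrial fatty acid synthesis. Its libraries stood at 13.9, 15.4 and 15.2 CPM in control, 22.6, 23.9 and 21.99 in LPS and 21.5, 19.1 and 18.8 in LPS plus BHB. Both treated groups lay above control without overlap. The log2 fold change with LPS was 0.62 ± 0.08 (adjusted p = 7.41e-07).

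Among the 7 Ndufaf factors, 2 were lower, 1 was higher and 4 were not called with LPS. Ndufaf4 (chr4:24898083-24905001), which acts with Ndufaf3 in building the coenzyme Q arm, gave 7.43, 6.80 and 9.35 CPM in control, 13.98, 12.2 and 11.7 in LPS and 7.56, 9.87 and 8.26 in LPS plus BHB libraries. The LPS libraries were above all others, and control and LPS plus BHB overlapped. It rose by 0.68 ± 0.13 on the log2 scale (adjusted p = 8.52e-05). Ndufaf1, an early assembly factor, went from 8.08, 10.5 and 7.64 CPM in control to 7.35, 6.23 and 6.54 with LPS. These groups did not overlap, and the change was -0.38 ± 0.14 (adjusted p = 0.016), but without control replicate 2 it was -0.23 (adjusted p = 0.153), and it was not called without LPS replicate 2 or 3 either.

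Ndufaf7 (chr17:78937136-78948052), a methyltransferase that acts in complex I assembly, averaged under 5 CPM and was picked after its values were seen. Control libraries gave 8.28, 6.29 and 7.64 CPM, LPS libraries 1.65, 1.47 and 1.63, and LPS plus BHB libraries 1.05, 0.764 and 0.918. The 3 groups were fully apart, in falling order. Its log2 fold change with LPS, -2.22 ± 0.20 (adjusted p = 1.29e-09), was the lowest of the 82 tested members.

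Complex III held 3 higher, 2 lower and 3 members not called with LPS. Uqcrq (chr11:53427922-53430831), a small subunit that binds next to cytochrome b, gave 28.0, 27.04 and 29.7 CPM in control, 74.3, 77.1 and 68.1 in LPS and 74.1, 64.6 and 62.5 in LPS plus BHB libraries. Treated libraries were all above control, and the treated groups overlapped. The rise with LPS was 1.37 ± 0.07 on the log2 scale (SE; adjusted p = 1.14e-13). Uqcr11 (chr10:80402997-80406830), a small subunit whose promoter is shown above, gave 24.7, 30.8 and 26.9 CPM in control, 14.6, 12.3 and 13.6 in LPS and 14.4, 13.7 and 12.6 in LPS plus BHB libraries. Its control libraries lay above all treated ones, opposite to Uqcrq, and it fell by 1.02 ± 0.10 (adjusted p = 3.7e-09).

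The Rieske iron-sulfur protein gene Uqcrfs1 (chr13:30540308-30545362), whose product passes electrons within complex III, was at 59.5, 65.0 and 62.3 CPM in control, 92.1, 88.4 and 83.0 in LPS and 93.4, 85.9 and 90.1 in LPS plus BHB libraries. Control stood below both treated groups, and the change with LPS was 0.50 ± 0.05 (adjusted p = 3.65e-08). The core protein gene Uqcrc2 rose by 0.43 ± 0.05 (adjusted p = 3.83e-08). Uqcr10, another small subunit, fell by 0.40 ± 0.08 (adjusted p = 0.000175), and with only control replicate 1 as control the change was -0.23 (adjusted p = 0.0817). Uqcrc1, the partner of Uqcrc2, varied within groups, at 2.48, 4.60 and 1.43 CPM in control, 4.35, 3.99 and 1.34 in LPS and 0.848, 5.84 and 0.776 in LPS plus BHB libraries. All groups overlapped, and it was not called (0.19 ± 0.90, adjusted p = 0.86). Its CV of 117% among LPS plus BHB libraries was the highest of the tested members, against a median of 7.24%, and the cause was not tested.

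Of 14 tested members of complex IV, 6 were higher and 4 lower with LPS, and with library totals alone 1 was higher and 9 were lower. Cox5a (chr9:57521274-57532426) gave 55.4, 56.0 and 55.4 CPM in control, 68.9, 73.8 and 69.5 in LPS and 70.1, 67.9 and 61.3 in LPS plus BHB libraries. Both treated groups were above control, and the change with LPS was 0.35 ± 0.06 (adjusted p = 9.36e-06), or 0.07 (adjusted p = 0.231) with library totals alone. Cox6a1 is the common form of the subunit whose muscle form is Cox6a2. It was at 87.6, 87.2 and 81.2 CPM in control and 101, 102 and 101 in LPS libraries. These groups were apart at 0.25 ± 0.05 (adjusted p = 8.46e-05), but library totals alone gave -0.027 (adjusted p = 0.611). Cox6c fell by 0.19 (adjusted p = 0.0196), a call lost under DESeq2's size factors at -0.15 (adjusted p = 0.0506) and without control replicate 2 or LPS replicate 2. Cox4i1, which overlapped between groups at 206 to 230 CPM in control and 199 to 208 in LPS libraries, changed by -0.11 (adjusted p = 0.0447), with the call lost under DESeq2's size factors at -0.08 (adjusted p = 0.15) and without most single libraries. Cox7a2 and Cox7a2l, described with BHB below, were the other abundant members of complex IV that were higher. Cox7c was also higher and the muscle and testis forms Cox7a1 and Cox6b2 were lower, each at a mean below 5 CPM.

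Cox6a2 (chr7:128205435-128206387), the heart and skeletal muscle form of the same subunit as Cox6a1, was picked after its values were seen, since it averaged under 5 CPM. Control libraries gave 0.0563, 0.268 and 0.110 CPM, LPS libraries 2.93, 3.36 and 3.08, and LPS plus BHB libraries 2.75, 2.15 and 1.34. Every treated library was above every control one. With 2, 10 and 4 counts in control, the gene passed the filter only through the treated groups where it is high, so no test of it is given. Its level remained far below that of Cox6a1. The annotated exons of Cox6a2 overlap Itgad over 10.3% of their length, and Itgad itself averaged 1.5, 1.13 and 1.07 CPM in control, LPS and LPS plus BHB.

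In complex V, 3 of 17 members were higher, 7 were lower and 7 were not called with LPS. Atp5b (chr10:128083273-128090391), the catalytic beta subunit, gave 405, 423 and 409 CPM in control, 623, 593 and 606 in LPS and 519, 493 and 476 in LPS plus BHB libraries. The 3 groups did not overlap, with LPS highest and control lowest. The rise with LPS was 0.56 ± 0.04 on the log2 scale (adjusted p = 1.96e-10). Its partner Atp5a1, the alpha subunit, which enters the enzyme in equal number, stayed at 435 to 447 CPM in control against 429 to 471 with LPS (0.02 ± 0.04, adjusted p = 0.65). The central stalk subunits were lower: Atp5c1 fell by 0.48, Atp5d by 0.50 and Atp5e by 0.48 on the log2 scale. Atp5h and Atp5f1 of the outer stalk fell by 0.42 and 0.21.

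Atp5j2, the f subunit of the membrane part, gave 49.5, 49.5 and 48.5 CPM in control, 29.7, 31.2 and 31.3 in LPS and 27.3, 22.9 and 23.2 in LPS plus BHB libraries. The groups stepped down without overlap, and the change with LPS was -0.68 ± 0.07 (adjusted p = 1.28e-08). Atp5k, the e subunit, was at 13.3, 14.9 and 11.9 CPM in control and 16.5, 15.6 and 18.3 with LPS, apart by 0.33 ± 0.11 (adjusted p = 0.00746), but by 0.05 (adjusted p = 0.638) with library totals alone. Of the 3 genes for the same c subunit of the rotor ring, Atp5g3 carried most of the counts, at 88.5 to 93.8 CPM in control and 86.7 to 91.2 with LPS (-0.02, adjusted p = 0.821). Of their transcripts' words of 31 bases, 14.1% for Atp5g1, 40.2% for Atp5g2 and 0.0% for Atp5g3 occur in transcripts of other genes. Whether this lowered the counts of Atp5g1 and Atp5g2 was not tested. Atp5g1, picked after its values were seen, rose from 2.37, 2.94 and 2.62 to 6.23, 4.23 and 6.65 CPM, by 1.11 ± 0.19 (adjusted p = 2.36e-05). Atp5s, a factor associated with the enzyme and also picked in that way, fell from 4.73, 4.42 and 4.25 to 1.22, 1.85 and 1.24 CPM, by 1.63 ± 0.24 (adjusted p = 2.87e-06).

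**Figure D3:**
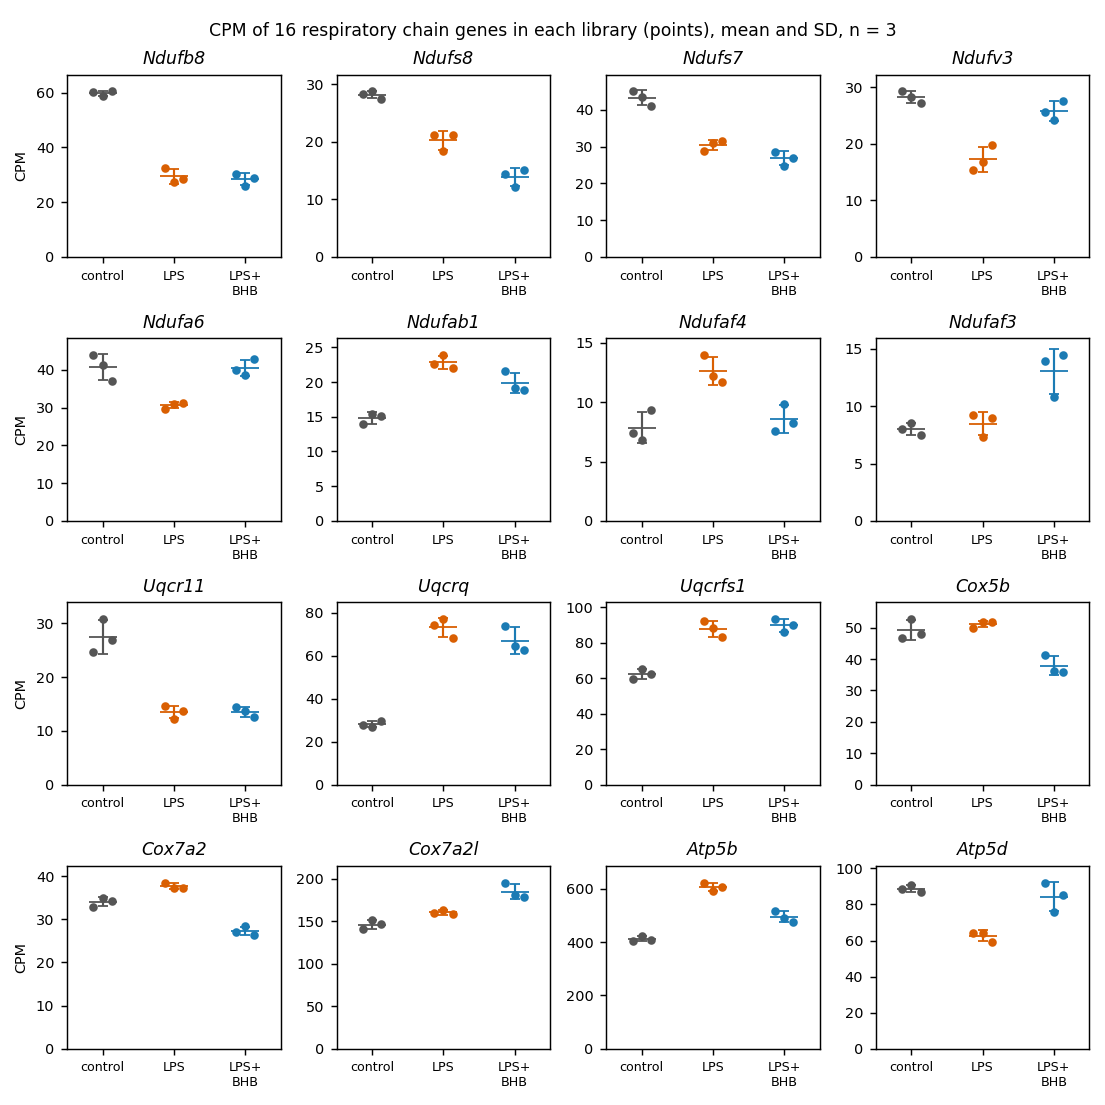
CPM (vertical axes, from 0) of 16 members in each library (points) of control, LPS and LPS plus BHB, with mean and SD over 3 libraries. Ndufb8, Uqcr11 and Uqcrq have treated groups that overlap each other and lie apart from control, while Ndufv3, Ndufa6 and Atp5d lie near their control level with BHB.

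Addition of BHB to LPS was compared with LPS alone. The changes were smaller than those of LPS itself and mostly downward: Cox7a2, Cox5b, Atp5o and Atp5j were lower, among others, while fewer were higher, such as Ndufv3, Ndufaf3, Ndufa6 and Atp5d. Of 82 tested members 11 were higher, 29 lower and 42 not called, or 48.8% called, against 50.7% of all genes. Higher calls made up 13.4% of members against 26.4% of all genes, and lower calls 35.4% against 24.4%. The median log2 fold change was -0.13 for members and 0.01 for all genes. Only 4 called members passed 1.5-fold, namely Ndufaf2, Ndufaf3, Ndufaf7 and Atp5g1, and 0 passed 2-fold, against 3080 and 1577 of all genes. The groups did not overlap for 43 members, and for 56.7% of all genes. With library totals alone 7 were higher and 36 lower, and against a fold of 1.2 with glmTreat 4 were higher and 9 lower. The shares of all genes under either setting are not given here, so these counts are not set against a background. This comparison and the one before share the LPS libraries, so the values of a gene in both are not independent. With library totals alone the counts of higher and lower members were 1 and 4 in the complex I core, 3 and 10 in the accessory subunits, 1 and 3 in the Ndufaf factors, 0 and 5 in complex III, 1 and 6 in complex IV and 1 and 8 in complex V.

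In the complex I core 2 members were higher and 3 lower with BHB. Ndufs8, whose libraries are given above, was lower by a further 0.54 ± 0.09 on the log2 scale (adjusted p = 3.66e-05), and Ndufs7 by 0.18 (adjusted p = 0.038, or 0.0559 without control replicates 2 and 3). Ndufs1 fell by 0.28 ± 0.05 (adjusted p = 0.000117), to below its control libraries. Ndufs3 was higher by 0.21 (adjusted p = 0.0286), a call that was lost without LPS plus BHB replicate 1, at 0.13 (adjusted p = 0.193), without LPS replicate 2 or 3, and with library totals alone.

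Accessory subunits of complex I had 4 higher, 8 lower and 17 not called. Ndufv3 (chr17:31520115-31531331), at the NADH-oxidising tip, gave 29.3, 28.3 and 27.3 CPM in control, 15.3, 16.8 and 19.7 in LPS and 25.6, 24.1 and 27.5 in LPS plus BHB libraries. LPS libraries were below all others, and those with BHB overlapped control. The gene fell by 0.71 ± 0.09 with LPS (adjusted p = 2.11e-07) and rose by 0.58 ± 0.09 when BHB was added (adjusted p = 1.34e-05). Ndufa6 (chr15:82350140-82354322), a binding partner of the acyl carrier protein, gave 43.9, 41.4 and 37.1 CPM in control, 29.7, 30.9 and 31.2 in LPS and 40.0, 38.6 and 42.8 in LPS plus BHB libraries. Its pattern was that of Ndufv3, at 0.40 ± 0.07 with BHB (adjusted p = 6.36e-05). Ndufc2 was higher by 0.36 (adjusted p = 0.00149) and Ndufa2 by 0.19 (adjusted p = 0.0345), the last one not with library totals alone or with DESeq2 (adjusted p = 0.0527).

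Among the 8 accessory subunits that were lower, Ndufc1 changed most. It went from 8.28, 9.83 and 10.04 CPM in LPS to 8.17, 6.11 and 7.06 in LPS plus BHB libraries, by -0.40 ± 0.14 (adjusted p = 0.0211), and the call was lost without LPS replicate 2 or 3 or LPS plus BHB replicate 2, where it was -0.30 (adjusted p = 0.108). Ndufb6 fell from 17.0, 17.9 and 19.5 to 14.7, 13.3 and 13.98 CPM, by 0.37 ± 0.09 (adjusted p = 0.0017). The groups of both genes were apart, narrowly for Ndufc1. Ndufa4 changed by -0.15 ± 0.07 and was not called (adjusted p = 0.0783), but with library totals alone it was at -0.20 (adjusted p = 0.0199). Ndufb8 and Ndufb3, the strongest falls with LPS, were at -0.06 ± 0.07 and 0.00 ± 0.12.

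Ndufaf factors held 1 higher and 3 lower members. Ndufaf3 (chr9:108565537-108567434), the partner of Ndufaf4, gave 8.00, 8.51 and 7.48 CPM in control, 9.20, 7.31 and 8.95 in LPS and 13.9, 10.8 and 14.5 in LPS plus BHB libraries. Its libraries with BHB were above all others, by 0.62 ± 0.13 against LPS (adjusted p = 0.000357). Ndufaf4, whose libraries are given above, moved in the opposite direction, by -0.56 ± 0.13 (adjusted p = 0.00144). Ndufaf2, a late assembly factor, fell by 0.60 (adjusted p = 0.0276), and Ndufaf7 by 0.79 (adjusted p = 0.00828).

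Complex III had 0 higher and 4 lower members with BHB by edgeR, with 0 higher at an unadjusted p below 0.05 and 0 by DESeq2. Uqcrb, which binds near the coenzyme Q site, went from 27.1, 26.7 and 28.5 CPM in LPS to 25.2, 20.8 and 21.3 in LPS plus BHB libraries, without overlap, by -0.29 ± 0.08 (adjusted p = 0.00454). Of its transcript's words of 31 bases, 58.2% occur in transcripts of other genes, so its counts may hold reads of copies. Uqcr10 changed by -0.21 ± 0.09 (adjusted p = 0.0481), which the replicate block took to an adjusted p of 0.0575. The call was also lost without most single libraries, at -0.16 (adjusted p = 0.187) without LPS plus BHB replicate 2. Uqcrq, Uqcr11 and Uqcrfs1 were not called, at -0.13, 0.00 and 0.03. Uqcrc1 was at -0.38 ± 0.93 (adjusted p = 0.772), but at -1.99 (adjusted p = 0.0453) without LPS plus BHB replicate 2, its highest library.

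In complex IV 1 member was higher and 4 lower with BHB. Cox7a2 (chr9:79755361-79759878) gave 33.0, 35.0 and 34.2 CPM in control, 38.5, 37.3 and 37.3 in LPS and 27.1, 28.4 and 26.5 in LPS plus BHB libraries. The libraries with BHB were lowest and the groups did not overlap, at -0.46 ± 0.06 (adjusted p = 2.95e-06). Cox7a2l (chr17:83501918-83517330) is a related gene whose product has been described as joining complex III to complex IV in supercomplexes. Whether it does so in the cells of these mice was not tested. It gave 140.5, 151 and 146 CPM in control, 159, 163 and 158 in LPS and 195, 180.2 and 178 in LPS plus BHB libraries. These groups were apart as well, with LPS plus BHB highest and control lowest, and the change with BHB was 0.20 ± 0.05 (adjusted p = 0.000918). With LPS against control Cox7a2l was at 0.14 ± 0.05 (adjusted p = 0.0106), at 0.11 (adjusted p = 0.0652) without control replicate 1, and at -0.14 (adjusted p = 0.00864) with library totals alone, so of these 2 changes only that with BHB kept its direction under each scaling.

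Cox5b (chr1:36691449-36693681), a zinc-binding subunit on the matrix side, gave 46.8, 52.8 and 47.9 CPM in control, 49.9, 51.8 and 51.7 in LPS and 41.3, 36.2 and 36.0 in LPS plus BHB libraries. Control and LPS overlapped, and the libraries with BHB were below both. The change was -0.43 ± 0.07 against LPS (adjusted p = 1.35e-05). Cox7b and Cox6b1 fell by 0.41 and 0.27 on the log2 scale (adjusted p = 0.000331 and 0.000877). Cox4i1 was not called, at -0.03 ± 0.05.

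In complex V 3 members were higher and 7 lower with BHB. Atp5d (chr10:80138632-80145818), the delta subunit of the central stalk, gave 88.6, 90.8 and 87.0 CPM in control, 64.4, 64.4 and 59.0 in LPS and 92.0, 75.7 and 85.4 in LPS plus BHB libraries. LPS libraries were lowest, and control and LPS plus BHB overlapped. It rose by 0.43 ± 0.06 (adjusted p = 6.32e-06). Atp5c1, the gamma subunit of that stalk, was higher by 0.12 (adjusted p = 0.0428), a call lost with library totals alone, with DESeq2 (adjusted p = 0.0705), with its size factors in edgeR, without control replicates 2 and 3 and when only the 6 LPS and LPS plus BHB libraries were fitted. Atp5o, a protein of the outer stalk, went from 54.8, 50.4 and 52.2 to 41.0, 37.6 and 40.2 CPM, without overlap, by -0.41 ± 0.06 (adjusted p = 9.54e-06). Atp5j, its neighbour in that stalk, went from 36.9, 37.5 and 39.3 to 31.4, 27.2 and 28.1 CPM, by -0.39 ± 0.07 (adjusted p = 7.57e-05). Exons of Atp5j overlap Gabpa over 16.3% of their length, and Gabpa itself averaged 97.8 CPM with LPS and 90.1 with BHB.

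Atp5b fell from LPS to LPS plus BHB by 0.29 ± 0.04 on the log2 scale (adjusted p = 9.43e-06), to a level between its control and LPS libraries. Atp5g3, Atp5j2 and Atp5f1 were lower by 0.35, 0.33 and 0.22. Atp5sl, known for assembly of complex I, was called higher at 0.21 ± 0.08 (adjusted p = 0.031), although its groups overlapped, at 23.0, 22.6 and 26.1 CPM in LPS and 25.7, 29.5 and 27.5 in LPS plus BHB libraries. Without LPS plus BHB replicate 2 it was at 0.16 (adjusted p = 0.141), and the call was also lost without LPS replicate 1 or 2 and with library totals alone. Atp5g1 fell by 0.60 ± 0.19 (adjusted p = 0.0114), to an adjusted p of 0.0617 without LPS replicate 3 and of 0.0503 without LPS replicate 1.

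The third comparison, LPS plus BHB against control, shares its libraries with both others. In it 16 members were higher, 47 lower and 19 not called. Of members 76.8% were called, 19.5% higher and 57.3% lower, and of all genes 78.4%, 38% and 40.4%. The groups did not overlap for 66 members and for 80.2% of all genes. The members' median log2 fold change was -0.30, against -0.06 for all genes. With library totals alone 4 were higher and 63 lower, against 3922 and 7366 of all genes. In the complex I core 5 were lower and 0 higher, also 0 at an unadjusted p below 0.05 and by DESeq2. Accessory subunits counted 2 higher and 19 lower, Ndufaf factors 1 and 3, complex III 3 and 4, complex IV 5 and 7, and complex V 5 and 9. The lowest value was that of Ndufaf7 at -3.02 ± 0.21. Ndufs8 was at -1.02 ± 0.09 (adjusted p = 1.04e-09), Atp5j2 at -1.01 ± 0.07 (adjusted p = 3e-11) and Ndufb8 at -1.07 ± 0.07 (adjusted p = 1.43e-11). Ndufv3, Ndufa6 and Atp5d were not called, at -0.14 ± 0.08, -0.01 ± 0.07 and -0.07 ± 0.06. Atp5b was at 0.27 ± 0.04 with TMM scaling (adjusted p = 1.3e-05) but at -0.06 (adjusted p = 0.194) with library totals alone, and Uqcrc2, Cox5a and Ndufa2 likewise turned sign without a call. Cox6a1 and Atp5a1, called higher with TMM scaling, were called lower with library totals alone, at -0.18 (adjusted p = 0.0021) and -0.20 (adjusted p = 0.00024).

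Sums over each complex are dominated by its most abundant genes and are given as a description. In CPM all 88 members summed to 3841 ± 107 in control (SD, n = 3), 3806 ± 62.3 in LPS and 3596 ± 143 in LPS plus BHB libraries. As a share of all counts they took 0.434% to 0.451%, 0.355% to 0.366% and 0.317% to 0.343%. Complex I without the Ndufaf factors summed to 1142 ± 25.3, 928 ± 14.3 and 901 ± 35.7 CPM. Its control libraries were above all treated ones on both scales. Complex III summed to 299 ± 13.4, 369 ± 4.76 and 340 ± 13.5 CPM, higher in treated libraries, but as a share of counts its control libraries, at 0.0333% to 0.0358%, overlapped those of LPS at 0.0348% to 0.0353% and lay above those of LPS plus BHB at 0.0302% to 0.0325%. Complex IV stayed at 839 ± 34.8, 855 ± 4.05 and 813 ± 37.7 CPM. Complex V summed to 1518 ± 34.0, 1615 ± 43.4 and 1504 ± 56.3 CPM, and as a share of counts its LPS libraries were below control.

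**Figure D4:**
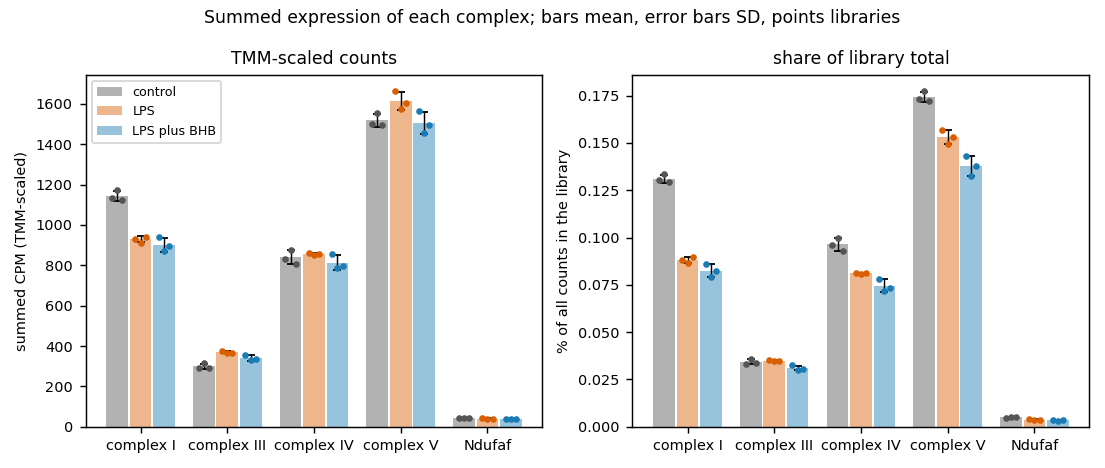
Summed counts of the members of each complex and of the Ndufaf factors per library, as TMM-scaled CPM (left) and as a percentage of all counts in the library (right), for control (grey), LPS (orange) and LPS plus BHB (blue), with bars for the mean, error bars for SD and points for libraries. Complex I is lower in treated libraries on both scales, while complex III is above control with LPS on the left and overlaps it on the right, and complexes IV and V are below control on the right.

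Other genes of the chain were described from lists by function. Their counts stand beside 38.4% higher and 41.4% lower of all genes with LPS, and 26.4% and 24.4% with BHB added to LPS. Of 8 tested genes of complex II, which has no member here, 5 were lower and 1 higher with LPS. All 4 subunits fell: Sdha by 0.40, Sdhb by 0.63, Sdhc by 0.53 and Sdhd by 0.56 on the log2 scale. Its assembly factor Sdhaf4 fell by 1.68 ± 0.16 (adjusted p = 5.4e-09), and with BHB it was higher by 0.55 (adjusted p = 0.0105). Of 11 tested subunits encoded by mitochondrial DNA, 8 were lower and 0 higher with LPS by edgeR, with 0 higher at an unadjusted p below 0.05 and 0 by DESeq2, and the median was -0.34. ND2 fell by 0.34 and ND6 by 0.42. With BHB 1 of them was higher, COX1 at 0.23, and 2 were lower, among them CYTB at -0.41.

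Electron carriers and coenzyme Q genes had 7 higher and 6 lower of 20 with LPS, or 35% and 30%, against 38.4% and 41.4% of all genes. Gpd2, which feeds electrons from glycerol 3-phosphate into coenzyme Q, rose by 3.02 ± 0.05 (adjusted p = 3.36e-21), from 32.1 to 35.2 CPM in control to 254 to 279 in LPS and 319 to 337 in LPS plus BHB libraries, with no overlap. Coq10b, a coenzyme Q binding protein, rose by 2.28. Adck3, a coenzyme Q synthesis protein, rose by 1.1 ± 0.11 with BHB (adjusted p = 2.93e-08). Assembly factors went both ways with LPS: for complex IV 9 of 24 were higher and 12 lower, with the copper carrier Cox17 at 1.54 and Coa5 at 0.73. For complex I outside the Ndufaf prefix 2 of 11 were higher and 4 lower, with Tmem70 at 1.21 and Tmem126b at -1.47. For complex III 1 of 5 was higher and 3 lower, with Uqcc3 at -1.21. For complex V and its associated genes 2 of 6 were higher and 4 lower, with Tmem242 at -1.29 and the inhibitor Atpif1 at -1.17. With BHB the same lists gave 3 higher and 8 lower (complex IV), 1 and 5 (complex I), 0 and 1 (complex III, also 0 higher at an unadjusted p below 0.05 and by DESeq2) and 1 and 1 (complex V). The RNA-binding proteins Lrpprc and Fastkd2 fell by 0.71 and 0.85 with BHB.

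Of 20 regulators of mitochondrial gene expression, 13 were higher and 4 lower with LPS, with a median log2 fold change of 0.55. Their shares were 65% and 20%, against 38.4% and 41.4% of all genes. Pprc1, a coactivator, rose by 1.96 and Tfam, the factor that packs and transcribes mitochondrial DNA, by 1.40 on the log2 scale. With BHB 4 were higher and 7 lower: Tfam fell by 0.67 ± 0.06 (adjusted p = 2.27e-08), and the mitochondrial DNA polymerase Polg rose by 0.79 ± 0.06 (adjusted p = 2.71e-10). Genes of supercomplexes and cristae had 5 higher and 4 lower of 12 with LPS, led by Immt at 0.97 and Higd1a at 1.65, and 2 higher and 3 lower with BHB, with Higd1a at 0.48 and Phb at -0.53. Among 11 genes of the oxygen-dependent isoform switch and mitochondrial quality control, 8 were higher and 3 lower with LPS and 5 and 2 with BHB. The protease Lonp1 rose by 2.68 with LPS. Hif1a, a factor of the oxygen response, rose by 1.73 with LPS and by a further 1.52 with BHB, and Bnip3, a mitophagy receptor, by 2.47 with BHB (adjusted p = 5.92e-17).

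Many subunit genes have processed copies in the genome. Of the words of 31 bases in a tested member's transcripts, a median of 6.15% occurred in transcripts of other genes, and 33 of 81 members had over 10%. Only Atp5l at 85.4%, Uqcrb at 58.2% and Ndufs3 at 55.0% had over 50%, so their counts are the most open to reads from copies. Overlap with another annotated gene was largest for Cox5a with Gm26631 at 41.7% of exon bases and for Ndufb6 with Smim27 at 39.0%. Ndufa13, Ndufb9, Uqcrc2, Atp5l, Atp5f1, Cox4i1 and Atp5j followed at 16.3% to 30.0%, among them Cox4i1 with Emc8 and Atp5f1 with Wdr77. Emc8 averaged 44.3, 21.4 and 16.5 CPM in the 3 groups and Wdr77 27.5, 60.5 and 27.2 CPM. The sources used here do not say whether the counting used strand, so reads from such pairs cannot be told apart.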

How the data were processed

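RNA from 9 libraries of mouse macrophages was extracted with Trizol and made into Illumina libraries, per the labels' protocols. The authors deposited whole-number counts per gene symbol. HISAT2 and the build mm10 are named, without version, per the submitters' processing notes, while the counting tool, annotation and strand setting were not given. From these counts, genes were filtered with filterByExpr (minimum count of 10), which left 14026 symbols and 99.956% of counts. Libraries were scaled by TMM and fitted together in edgeR 4.0.16 (R 4.3.3, robust quasi-likelihood, 6 residual degrees of freedom), with calls at a Benjamini-Hochberg adjusted p below 0.05 over all genes tested. SE is the log2 fold change divided by the root of F.

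In simulated counts holding 200 altered genes, the LPS against control test found 46.3% of 1.2-fold, 74.6% of 1.5-fold and 97.0% of 2-fold changes, and the LPS plus BHB against LPS test 49.3%, 85.1% and 93.9%. The altered genes were drawn only from genes with higher counts. They were far fewer than the genes called in the real data, so these rates need not hold there. Members and lists were chosen with earlier results of these data known, and the lists of other chain genes are from textbook function. Named genes are, per complex and comparison, up to 2 called higher and 2 called lower with the largest change at a mean of at least 5 CPM, together with Ndufs1, Ndufv1, Ndufa4, Cox4i1, Cox7a2l, Uqcrc1, Uqcrfs1 and Atp5b, and the 2 genes of each other list with the smallest p. Further genes were picked after their values were seen. The values of 1 tested member are not reported here, though it is in all counts, medians and sums. Lengths, positions and shared words of 31 bases came from GENCODE M21, which matched 87 members, and promoters from RefSeq. Intervals and floors cover counting error only. Alternatives were DESeq2 1.42.0, its size factors, library totals, no filter, a replicate block, a fit of the 6 libraries compared, glmTreat and leaving out libraries. Figures were drawn with matplotlib 3.10.9.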

Additional observations from a re-analysis of the deposited data

How the results depend on the processing

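With library totals alone, LPS against control had 8 members higher and 60 lower, LPS plus BHB against LPS 7 higher, and LPS plus BHB against control 4 higher, and the log2 fold change with LPS was -0.027 (adjusted p = 0.611) for Cox6a1, -0.14 (adjusted p = 0.00864) for Cox7a2l and -0.17 (adjusted p = 0.00489) for Ndufs1. Those are the reversals that involved a call. They were found among 57 named gene results of LPS against control and of LPS plus BHB against LPS, under 17 alternatives each. Of the 969 values 892 kept their side of the threshold, with the same direction where called, 63 lost the call and 11 gained it. Uncalled values that turned sign are among the 892, such as Uqcrc1 with LPS at 0.19, or -0.09 with library totals alone. Against a fold of 1.2 with glmTreat, LPS plus BHB against LPS had 4 higher and 9 lower members and LPS plus BHB against control 8 higher, and 17 of the 57 results lost their call. Leaving out 1 library at a time, the higher members of LPS plus BHB against LPS ranged from 7, without LPS replicate 2, to 11. Where not stated otherwise, the cause of such a change was not tested. Counts of members in this section are given without the share of all genes under the same settings.

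Same-numbered libraries correlated at -0.02 to 0.04 in their deviations over 9 pairs, so no shift common to a number was seen. This cannot show whether they share an origin, which the labels do not give. With the replicate block 14 members were higher and 37 lower with LPS, 10 and 27 with BHB added to LPS and 15 and 47 with both against control. With control replicates 2 and 3 left out the counts were 12 and 29, 10 and 26, and 13 and 41, the single control being assumed to vary like the other groups. Members near or under 1 CPM, and changes near 1.2-fold, are at the limit of this depth and number of libraries.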
